A study of Homo sapiens with 6 samples.

Results

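Before a cell can copy its DNA, each replication origin has to be licensed, and the transcripts of the 10 genes of that machinery are described here in fibroblasts held in mitosis. The genes were chosen by name as the loaders ORC1, CDC6 and CDT1, the inhibitor GMNN (geminin) and the 6 helicase subunits MCM2 to MCM7. All 10 were found among the 63129 genes listed in the table. Licensing takes place from late mitosis through G1, when the origin recognition complex and CDC6, with CDT1, load the ring-shaped MCM helicase onto DNA in an inactive form. Geminin binds CDT1 in S phase, G2 and early mitosis and so keeps origins from being loaded again in the same cycle, and its destruction at mitotic exit lets licensing restart. Many of these genes are known E2F targets that are transcribed around the entry into S phase.

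The data are RNA sequencing of poly(A) RNA from ERRAS cells, early passage IMR90 human lung fibroblasts that stably carry a tamoxifen-inducible H-RasV12 fused to the estrogen receptor ligand-binding domain. The study asked how oncogenic Ras changes gene expression in mitosis. The 3 Ras-induced libraries came from cells induced for 4 days, with 100 nM tamoxifen by the labels, and the 3 control libraries came from uninduced cells that carry the same construct. The study's methods name the active metabolite hydroxytamoxifen and give its dose by mass, so the inducing dose is uncertain. Cells of both groups were kept in G418 at 3% oxygen, were arrested with 1 µM DME (dimethylenastron, an inhibitor of the kinesin Eg5 that blocks bipolar spindle assembly), and were collected as detached cells with a mitotic index over 90%. The protocol of arrest and collection is therefore shared by all libraries. In the study's imaging under DME, Ras-induced cells stayed longer in arrest and left it by slippage more often. The part of such differences in these libraries was not tested. Any cells outside mitosis that this index allows are part of each value, and no separate library of such cells was used here. Levels are given as FPKM, fragments per gene divided by transcript length and by the library's mapped fragments, so levels of different genes can be compared per length. Absolute depth is not given, since read counts and alignment statistics were not analysed here. Steps between low values put the depth of the control libraries at 1, 0.950 and 1.17 and that of the Ras-induced libraries at 1.13, 0.848 and 0.972, each relative to control library 1. By the study's account the libraries of a group are independent repeats of the experiment, and the labels do not say which libraries of the groups were made together.

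The labels were first checked against known targets of the pathway. HRAS was listed at 1174, 1176 and 1140 FPKM in control cells and at 1439, 1847 and 1473 FPKM in Ras-induced cells (log2 fold change 0.44, SE 0.11, limma adjusted p = 0.0431); reads of the construct and of the resident gene cannot be told apart. The call was lost after scaling to a common upper quartile (limma adjusted p = 0.0925) and whenever 1 of the 6 libraries was left out (limma adjusted p from 0.0598 without Ras-induced library 2 to 0.156 without control library 2), while the sign was positive in each setting. Over all 13993 genes tested, 1543 were called higher and 793 lower in Ras-induced cells. Of 10 ERK target genes, 7 were called higher and 1 lower. Among them, DUSP6, a phosphatase that dampens ERK, rose from 2.49 ± 0.729 to 32.7 ± 10.04 FPKM (SD, n = 3 per group), and the immediate early gene EGR1 rose from 4.25 ± 0.920 to 20.2 ± 4.32 FPKM (SD, n = 3). The exception was FOSL1, an AP-1 subunit, which fell from 271 ± 28.5 to 120 ± 15.7 FPKM (SD, n = 3). Without Ras-induced library 1 the list had 4 genes called higher, and DUSP6 and EGR1 were among them.

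The promoters of the licensing genes were searched for short words. RefSeq promoter windows, which run from 250 bases before to 50 bases after a start site in the GRCh38.p14 build, were matched for 8 of the 10 genes, giving 11 windows. MCM4 and MCM5 were not matched. The 250 bases before the start site are shown for CDT1, MCM3, MCM6 and MCM7, the loader and the helicase subunits at the ends of the range of changes, and for ORC1, in which no E2F word was found. They lie at chr16:88803539-88803788 on the plus strand for CDT1, and on the minus strand at chr6:52284743-52284992 for MCM3, chr2:135876444-135876693 for MCM6, chr7:100101398-100101647 for MCM7 (the first of its 3 windows) and chr1:52404424-52404673 for ORC1. Each is written 5′ to 3′ on the strand of its gene, and capitals mark the words TTTCCCGC, TTTCGCGC, TTTGCCGC or TTTGGCGC, searched on both strands as forms of the E2F motif, which can overlap each other.
CDT1: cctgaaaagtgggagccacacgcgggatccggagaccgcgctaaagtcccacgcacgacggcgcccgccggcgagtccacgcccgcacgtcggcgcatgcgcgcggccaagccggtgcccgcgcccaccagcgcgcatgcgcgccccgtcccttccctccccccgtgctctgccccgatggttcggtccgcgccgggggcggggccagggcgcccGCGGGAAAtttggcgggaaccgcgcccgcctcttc
MCM3: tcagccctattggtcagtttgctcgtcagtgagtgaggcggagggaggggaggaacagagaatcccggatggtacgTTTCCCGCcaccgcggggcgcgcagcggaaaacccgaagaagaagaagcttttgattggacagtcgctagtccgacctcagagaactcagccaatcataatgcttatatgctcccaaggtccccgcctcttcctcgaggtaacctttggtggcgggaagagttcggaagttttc
MCM6: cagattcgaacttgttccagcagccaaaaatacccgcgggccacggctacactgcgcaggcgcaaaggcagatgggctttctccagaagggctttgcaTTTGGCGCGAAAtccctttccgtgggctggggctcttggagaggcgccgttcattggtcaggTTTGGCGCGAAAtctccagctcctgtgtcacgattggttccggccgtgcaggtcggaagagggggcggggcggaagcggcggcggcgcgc
MCM7: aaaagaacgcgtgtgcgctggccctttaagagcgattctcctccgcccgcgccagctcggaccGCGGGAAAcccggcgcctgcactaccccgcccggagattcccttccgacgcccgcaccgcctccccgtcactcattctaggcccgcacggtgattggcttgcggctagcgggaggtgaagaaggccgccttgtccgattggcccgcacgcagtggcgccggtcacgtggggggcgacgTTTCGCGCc
ORC1: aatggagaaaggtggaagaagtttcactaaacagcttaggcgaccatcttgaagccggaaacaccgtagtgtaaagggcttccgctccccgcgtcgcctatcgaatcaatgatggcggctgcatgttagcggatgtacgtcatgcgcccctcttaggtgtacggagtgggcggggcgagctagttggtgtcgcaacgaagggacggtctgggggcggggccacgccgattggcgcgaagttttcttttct

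At least 1 E2F word stood in 7 of the 11 licensing windows (63.6%), belonging to 7 of the 8 genes, against 3.31% of the 35116 windows in the RefSeq table. The share was 33.3% of 30 windows of replication fork genes and 14.3% of 14 windows of mitotic marker genes. MCM6 held overlapping pairs of words at -152 to -141 and at -90 to -79, counted from the start site with no position 0. MCM3 held a word at -174 to -167 and another at -4 to 4, across the start site. In MCM7 the words lay at -187 to -180 and -9 to -2, in CDT1 at -35 to -28 and in GMNN, in the second of its 2 windows, at -80 to -73. The words of CDC6 (8 to 15) and MCM2 (3 to 14) lay after the start site. The CCAAT box word CCAAT was found in 8 of 11 licensing windows (72.7%) against 34.6% of all windows, 50.0% of the replication fork windows and 92.9% of the mitotic marker windows. The GC box word GGGCGG was in 9 licensing windows (81.8%), against 45.0%, 76.7% and 85.7% of those sets. The CHR word TTTGAA, the cell-cycle homology element of many G2 and mitotic genes, was in 0 of the 11 licensing windows, in 3.33% of the replication fork windows (1 of 30), in 15.2% of all windows and in 57.1% of the mitotic marker windows. These matches describe letters in the windows and were not tested for any link with expression.

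**Figure D1:**
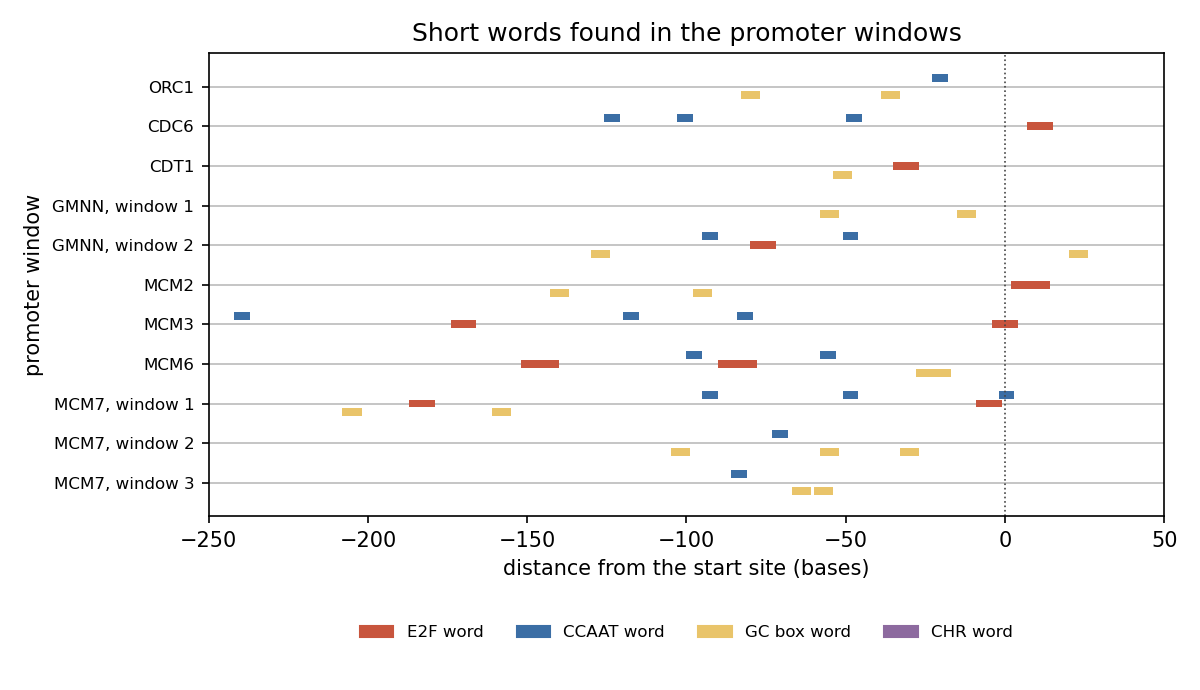
Each grey line is a promoter window drawn by distance from the start site in bases, and coloured blocks mark E2F, CCAAT, GC box and CHR words on either strand. E2F words are present in 7 of the 11 windows, and no CHR word was found in any of them.

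In the mitotic cells, all 10 licensing genes averaged 1 FPKM or more across the libraries and were tested with limma on log2(FPKM + 1), a scale that understates the change of genes with low values. Of the 10, 7 were called lower in Ras-induced cells and 3 were not called, with 0.05 as the highest adjusted p (Benjamini-Hochberg) that counts as called. Over all 13993 genes tested, 16.7% were called in either direction and 5.67% were called lower. For 9 of the 10 all 3 Ras-induced values lay under all 3 control values, which held for 12.8% of all genes tested. The median log2 fold change of the 10 genes was -0.73 and that of all genes tested was 0.10, and each of the 10 lay below the latter. The calls over all genes were 1543 higher and 793 lower (66.1% higher). When the libraries were scaled to a common upper quartile the split was 921 higher and 1101 lower (45.6% higher), and with quantile normalization 1044 and 1109 (48.5% higher). Under these scalings the median of all genes was 0.00 and 0.01, the median of the licensing genes was -0.83 in both, and 8 of the 10 were called lower, CDC6 being added.

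**Figure D2:**
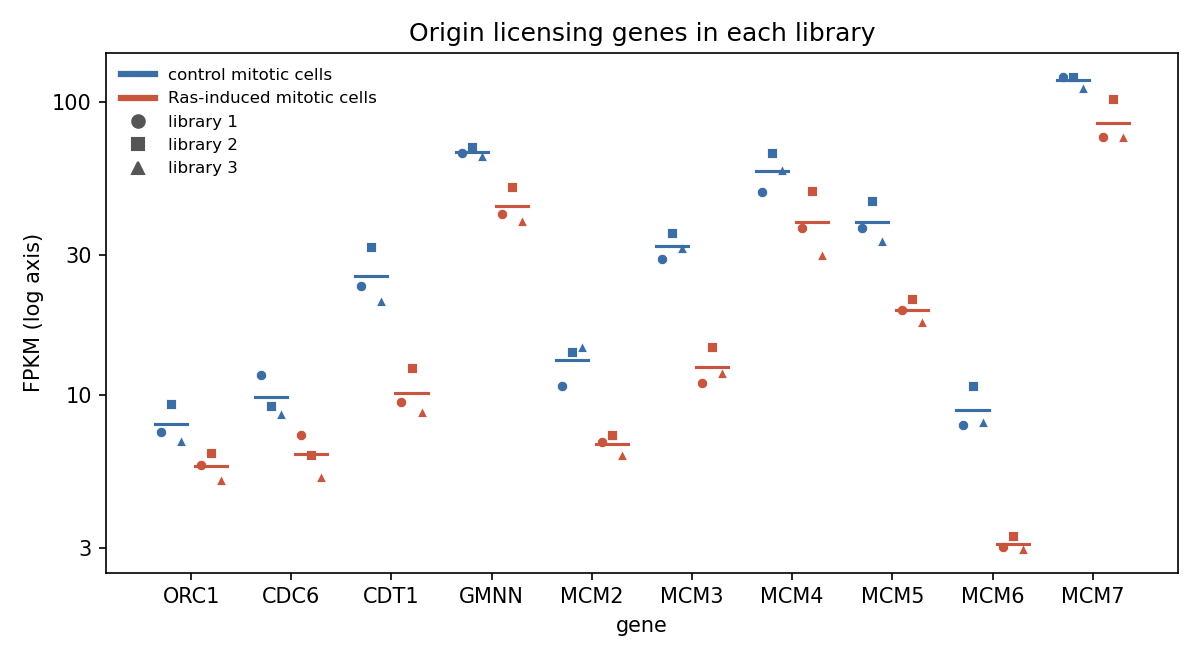
FPKM on a log axis is shown for each licensing gene in the 3 control and 3 Ras-induced libraries, with marker shapes for the library number and a line at each group's mean. The groups overlap only in MCM4.

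ORC1 is the origin recognition subunit whose level changes through the cell cycle. It was at 7.48, 9.33 and 6.96 FPKM in control libraries 1 to 3 and at 5.74, 6.35 and 5.11 FPKM in Ras-induced libraries 1 to 3. The Ras-induced libraries were all below the control libraries, with a small gap between the nearest values. The means were 7.92 ± 1.25 and 5.73 ± 0.620 FPKM (SD, n = 3). The log2 fold change was -0.40 (SE 0.14, 95% interval -0.73 to -0.07) and was not called (limma adjusted p = 0.0929). CDC6, the ATPase that recruits CDT1 and the helicase to the origin recognition complex, was at 11.7, 9.17 and 8.58 FPKM in control cells and 7.31, 6.24 and 5.26 FPKM in Ras-induced cells. Library 1 was the highest of both groups and library 3 the lowest, and the groups did not overlap. CDC6 was at 63.9% of its control mean, and its log2 fold change of -0.57 (SE 0.16) missed the threshold (limma adjusted p = 0.0516, 0.0255 to 0.162 over the 13 other settings tried, 4 of which called it).

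CDT1, the loading factor that geminin inhibits, lies at chr16:88870197-88875666 on the plus strand (GRCh37). It was at 23.6, 31.9 and 20.9 FPKM in the control libraries and at 9.42, 12.3 and 8.72 FPKM in Ras-induced cells. Every control value was well above every Ras-induced value, and library 2 was the highest of each group. CDT1 fell to 39.9% of the control mean (25.4 ± 5.75 to 10.2 ± 1.93 FPKM, SD, n = 3), and the log2 fold change was -1.24 (SE 0.19, limma adjusted p = 0.00940). Without Ras-induced library 1 the limma adjusted p was 0.0504, the highest of a range that began at 0.00507, and the call was lost in that setting alone. GMNN, which encodes the inhibitor, was at 66.7, 70.2 and 65.1 FPKM in control cells and at 41.5, 51.4 and 39.1 FPKM in Ras-induced cells. The control libraries were close to each other, the Ras-induced libraries were more spread, and the groups did not overlap. GMNN fell to 65.3% of the control mean, a log2 fold change of -0.61 (SE 0.11, limma adjusted p = 0.0163). Its call was lost without control library 1, control library 2, Ras-induced library 1 or Ras-induced library 3 (limma adjusted p = 0.0622, 0.0722, 0.0673 and 0.0614, from a range of 0.00908 to 0.0722 over all settings).

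The FPKM of CDT1 per FPKM of GMNN was 0.353, 0.454 and 0.321 in the control libraries and 0.227, 0.240 and 0.223 in the Ras-induced libraries. The Ras-induced ratios were close together and all under the control ratios. On the log2(FPKM + 1) scale the difference between CDT1 and GMNN was 0.62 lower in Ras-induced cells (-2.02 ± 0.0383 against -1.39 ± 0.248, SD, n = 3; exact two-sided permutation p = 0.1, the smallest that 3 libraries against 3 can give). Transcript ratios were measured here, and the proteins were not analysed here.

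The 6 subunits MCM2 to MCM7 form a heterohexamer, the core of the replicative helicase. Their summed level was 255, 295 and 259 FPKM in the control libraries and 153, 198 and 145 FPKM in the Ras-induced libraries, so the groups were apart, and the mean was 61.4% of that of the controls (269 ± 22.1 against 165 ± 28.8 FPKM, SD, n = 3). The subunits differed in the size of the change, with log2 fold changes spanning 0.81 from lowest to highest. MCM3, MCM6, MCM5 and MCM2 were at 52.0% of their control mean or lower, while MCM4 and MCM7, which have the highest levels in the complex, were at 67.0% and 71.5%.

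MCM3, at chr6:52128812-52149679 on the minus strand (GRCh37), was at 29.0, 35.5 and 31.8 FPKM in the control libraries and at 11.0, 14.5 and 11.9 FPKM in Ras-induced cells. The lowest control value was well above the highest Ras-induced value. MCM3 fell to 38.9% of its control mean, with a log2 fold change of -1.30 (SE 0.13, limma adjusted p = 0.00287). MCM6, at chr2:136597196-136634013 on the minus strand (GRCh37), is the least abundant subunit per length, at 7.91, 10.7 and 8.07 FPKM in control cells and 3.02, 3.29 and 2.98 FPKM in Ras-induced cells. The Ras-induced values were close to each other and far below the controls. MCM6 fell to 34.7% of its control mean, the lowest share of the 10 genes, with a log2 fold change of -1.26 (SE 0.14, limma adjusted p = 0.00384). The order of these genes depends on the setting, since with a pseudocount of 0.1 MCM6 was at -1.48 and MCM3 at -1.36. MCM5, which borders MCM2 at the gate through which DNA enters the ring, was at 37.0, 45.7 and 33.5 FPKM in control cells and 19.5, 21.3 and 17.7 FPKM in Ras-induced cells. Again no values overlapped. MCM5 fell to 50.3% of its control mean (log2 fold change -0.95, SE 0.13, limma adjusted p = 0.00767). The calls of MCM3, MCM5 and MCM6 held in the 13 other settings without a fold threshold, and MCM5 was not called where the log2 fold change also had to reach 1 in size.

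MCM2, the other side of that gate, was at 10.7, 14.0 and 14.6 FPKM in the control libraries and at 6.92, 7.26 and 6.24 FPKM in Ras-induced cells. Control library 1 was lower than the other controls and still above every Ras-induced library. MCM2 fell to 52.0% of its control mean (log2 fold change -0.84, SE 0.13, limma adjusted p = 0.0108), and the call was lost without control library 2, Ras-induced library 1 or Ras-induced library 3 (limma adjusted p = 0.0612, 0.0504 and 0.0564, from a range of 0.00756 to 0.0612). MCM4, part of the MCM4, MCM6 and MCM7 subassembly, was at 49.0, 66.8 and 58.6 FPKM in control cells and at 37.2, 49.7 and 30.0 FPKM in Ras-induced cells. Ras-induced library 2 exceeded control library 1, the only overlap among the 10 genes. The log2 fold change of MCM4 was -0.58 (SE 0.20, 95% interval -1.06 to -0.11) and was not called (limma adjusted p = 0.0911).

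MCM7, at chr7:99689856-99699563 on the minus strand (GRCh37), had the highest level of the 10 genes, 121, 122 and 112 FPKM in control cells and 75.6, 102 and 75.9 FPKM in Ras-induced cells. Ras-induced library 2 lay between the other Ras-induced libraries and the controls. The log2 fold change was -0.49 (SE 0.13) and was just called lower (limma adjusted p = 0.0469). The limma adjusted p without control libraries 1 to 3 in turn was 0.132, 0.142 and 0.0838, without Ras-induced libraries 1 and 3 it was 0.135 and 0.148, and without Ras-induced library 2 it was 0.0156, the lowest over all settings. By the annotation, MCM7 shares 392 exon bases (7.90% of its exon bases) with AP4M1 on the opposite strand, which was at 13.7 to 20.4 FPKM, and 29 bases with the microRNA gene MIR93 inside it. MIR93 was listed at 0 in 5 libraries and at 364 FPKM in Ras-induced library 2. That library had the highest value of its group for 9 of the 10 licensing genes, MCM7 among them. The counting is not stated to use strand, so reads of MCM7, AP4M1 and MIR93 cannot be told apart where they overlap.

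**Figure D3:**
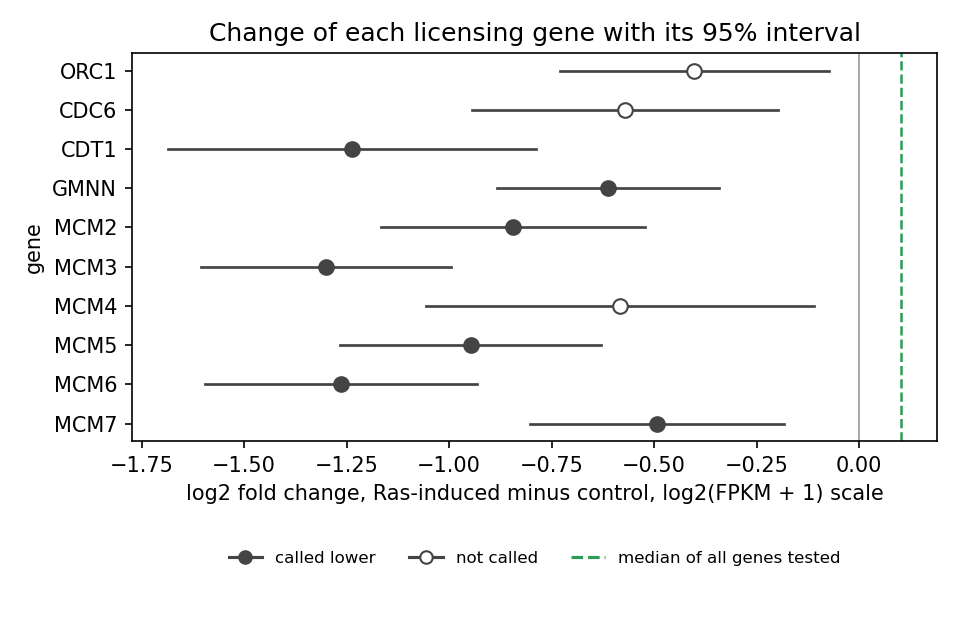
Points give the log2 fold change of each licensing gene (Ras-induced minus control, log2(FPKM + 1) scale), bars give the 95% interval, and the dashed line is the median of all genes tested, 0.10. Filled points were called lower, and ORC1, CDC6 and MCM4 (open points) were not called.

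The order of the levels within a group was compared as well. In control cells it ran from MCM7 through GMNN, MCM4, MCM5, MCM3, CDT1, MCM2, CDC6 and MCM6 down to ORC1. Neighbours in that order overlapped between libraries except MCM7 with GMNN, MCM4 with MCM5 and CDT1 with MCM2. In Ras-induced cells the order differed in the last places, where MCM6 stood below ORC1 with no overlap. MCM7 made up 44.1% ± 3.16 of the summed MCM2 to MCM7 level in control cells and 51.1% ± 1.61 in Ras-induced cells (SD, n = 3), and these shares did not overlap. The share of MCM3 was 11.9% ± 0.478 and 7.58% ± 0.560, and that of MCM6 was 3.29% ± 0.304 and 1.90% ± 0.209 (SD, n = 3), again with no overlap between groups. MCM4 took 21.5% ± 1.98 and 23.4% ± 2.30, and MCM2 4.87% ± 0.717 and 4.16% ± 0.444 (SD, n = 3), with overlapping libraries. MCM5 took 14.3% ± 1.28 and 11.9% ± 1.04 (SD, n = 3), with a narrow gap between the groups. These shares are a description, and no pair of subunits was tested.

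**Figure D4:**
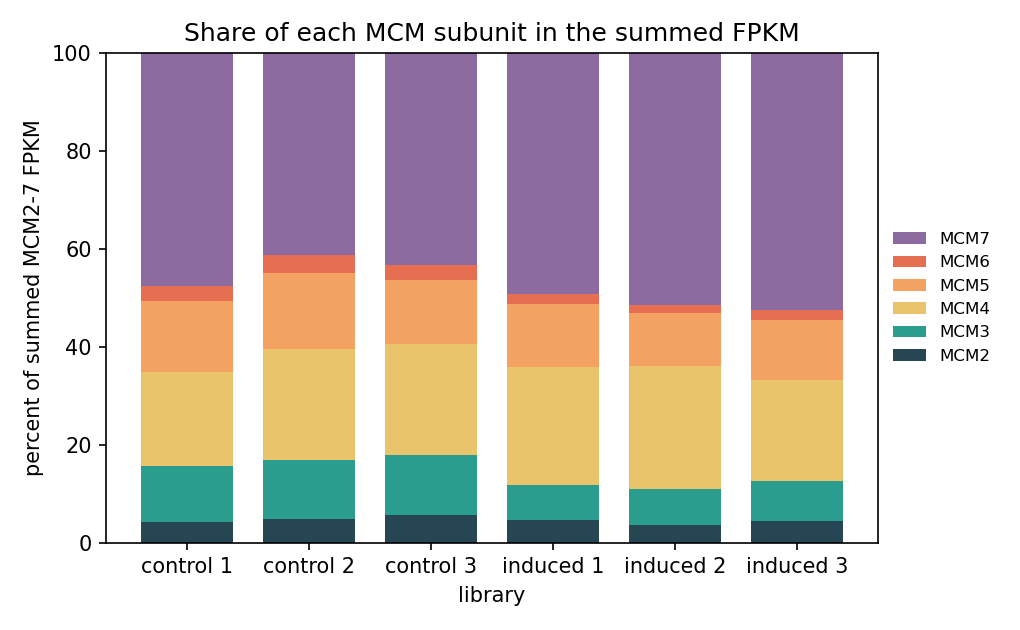
Stacked bars give the percent of the summed MCM2 to MCM7 FPKM in each library that belongs to each subunit. MCM7 took 41.4% to 47.5% in the control libraries and 49.3% to 52.4% in the Ras-induced libraries.

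Control library 2 had the highest value of its group for 8 of the 10 genes, and Ras-induced library 2 for 9, against 32.9% and 35.2% of all genes tested. Ras-induced library 3 was the lowest of its group for 8, against 30.8% of all genes tested. The FPKM of all genes summed to 571300, 576600 and 556500 in the control libraries and to 576600, 623500 and 595200 in the Ras-induced libraries, so library 2 had the highest total of both groups, and the part of these totals was not tested. Over the 6 libraries, the Pearson correlation of each gene with the mean of the other 9 ranged from 0.806 for CDC6 to 0.992 for CDT1, values that include the difference between the groups. By the same measure, the tested genes most like the mean profile of the 10 were PTRF, which encodes a caveolar coat protein (r = 0.9995), C1QTNF6 (r = 0.997), MXD3, a MAX partner (r = 0.995), AC119673.1 (r = 0.994), PTN, which encodes the growth factor pleiotrophin (r = 0.994), PCSK7, a proprotein convertase (r = 0.994), TAGLN, an actin-binding protein of smooth muscle (r = 0.994), and UHRF1, which directs DNA methylation at replicated DNA (r = 0.993). UHRF1 was at 68.3, 78.7 and 71.3 FPKM in control cells and 38.4, 43.2 and 35.2 FPKM in Ras-induced cells.

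Of 8 other ORC subunits and loading partners, 1 was called higher and 1 lower, with a median log2 fold change of 0.05. Over all 13993 genes tested, 1543 were called higher and 793 lower. LRWD1, which stabilizes the origin recognition complex on chromatin, rose from 33.5 ± 3.62 to 48.0 ± 5.88 FPKM (SD, n = 3; limma adjusted p = 0.0361), a call lost under both scalings (limma adjusted p = 0.0662 and 0.0642) and with any library left out (0.0504 without Ras-induced library 1 to 0.116 without Ras-induced library 3). MCMBP, a partner of the MCM proteins, fell from 51.1 ± 3.71 to 40.4 ± 1.27 FPKM (SD, n = 3; limma adjusted p = 0.0389), and was called lower under both scalings but, among the fits without a library, only in that without control library 3 (0.0655 to 0.113 in the others). ORC2, ORC3, ORC4, ORC5 and ORC6, the subunits that form the complex with ORC1, had log2 fold changes of -0.10, -0.20, 0.08, 0.36 and 0.08 and were not called, although ORC3 was called lower under both scalings (limma adjusted p = 0.0379 and 0.0373) and ORC5 higher without Ras-induced library 1 (limma adjusted p = 0.0333). The difference between ORC1 and these subunits was not tested. MCM8 (0.10) and MCM9 (0.09), relatives that act in recombination and not in licensing, were not called, while GMNC and MCIDAS, the geminin relatives, had means under 1 FPKM and were not tested, MCIDAS being listed at 0 in each library.

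Of 15 genes of helicase activation and origin firing, 4 were called lower and the others were not called. Their median log2 fold change was -0.28. Among all genes tested, 5.67% were called lower. MCM10, which helps activate the loaded helicase, fell from 11.1 ± 1.60 to 5.12 ± 0.813 FPKM (SD, n = 3), and its log2 fold change was -0.98 (limma adjusted p = 0.00901). GINS3 and GINS2, subunits of the GINS complex that joins MCM2 to MCM7 in the active helicase, had log2 fold changes of -0.72 and -0.71 (limma adjusted p = 0.00790 and 0.0317), and DBF4B, an activator of the CDC7 kinase, -0.40 (limma adjusted p = 0.0301). CDC45, the other helicase cofactor, had a log2 fold change of -0.28 (limma adjusted p = 0.187) and CDC7, the kinase that triggers firing, -0.51 (limma adjusted p = 0.109), and neither was called. CDC7 was called lower only when Ras-induced library 2 was left out (limma adjusted p = 0.0399). GINS2 and DBF4B were called in the fit without control library 3 and in no other fit without a library. The number called lower was 2 without control library 1, Ras-induced library 1 or Ras-induced library 3, and 1 (GINS3) without control library 2. Of 11 genes that control licensing by proteolysis and kinases, 9 were tested and 2 were called lower. These were DTL (-0.62, limma adjusted p = 0.0106), the adaptor that targets CDT1 for destruction in S phase, and CCNA2 (-0.50, limma adjusted p = 0.0125), which encodes cyclin A, and neither was called without control library 2 (limma adjusted p = 0.0573 and 0.0557) or Ras-induced library 3 (0.0533 and 0.0574). SKP2, another ligase subunit that acts on CDT1, had a log2 fold change of 0.01. FBXO5 and CCNE2 were under the minimum of 1 FPKM.

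Of 26 replication fork genes, 9 were called lower and 2 higher, with a median log2 fold change of -0.34. Over all 13993 genes tested, 793 were called lower and 1543 higher. POLA1, the catalytic subunit of polymerase alpha, fell from 5.38 ± 0.20 to 2.21 ± 0.242 FPKM (SD, n = 3; limma adjusted p = 0.00510), and LIG1, the ligase of the lagging strand, fell from 29.9 ± 1.93 to 18.7 ± 1.42 FPKM (SD, n = 3; limma adjusted p = 0.00768). PCNA, the sliding clamp, had a log2 fold change of -0.54 (limma adjusted p = 0.0130). POLD4, a small subunit of polymerase delta, rose from 33.9 ± 7.05 to 70.7 ± 5.76 FPKM (SD, n = 3; limma adjusted p = 0.00931), and FEN1, the flap nuclease, had a log2 fold change of 0.29 (limma adjusted p = 0.0330), a call lost under both scalings (limma adjusted p = 0.118 and 0.111) and in each fit without a library other than control library 3 (0.0639 to 0.0803). PCNA was not called without control library 2 or Ras-induced library 3 (limma adjusted p = 0.0558 and 0.0574). The count called lower was 4 without control library 1 or Ras-induced library 1, 3 without control library 2 or Ras-induced library 3, and 6 without control library 3, and POLA1 and LIG1 were called in each of these fits. Of 13 genes of the E2F and RB family, 12 were tested, 4 were called lower and 3 higher, with a median of -0.26. E2F2, the member under the minimum of 1 FPKM, was at 0.517 ± 0.0951 and 0.0408 ± 0.0311 FPKM (SD, n = 3) with no overlap, and limma called it lower when no filter on the mean was set. E2F8 (-1.16), E2F5 (-0.81), RBL1 (-0.60) and RB1 (-0.50) were lower, and E2F6 (0.71), E2F7 (0.65) and E2F4 (0.33) were higher, of which E2F7 (limma adjusted p = 0.0691 and 0.0568) and E2F4 (0.120 and 0.104) lost the call under both scalings. E2F6 lost it without control library 1 or 2 (limma adjusted p = 0.0516 and 0.0585) or Ras-induced library 1 or 3 (0.0563 and 0.0640). The count called higher was 0 in limma without control library 2, Ras-induced library 1 or Ras-induced library 3 (3 in each at an unadjusted limma p under 0.05), 1 without control library 1 or 3, and 2 without Ras-induced library 2. E2F1, an activator of S phase genes, was at 11.4, 13.7 and 6.47 FPKM in control cells and 3.40, 6.76 and 3.62 FPKM in Ras-induced cells, with overlapping groups, and was not called (limma adjusted p = 0.0694). Leaving out control library 3 gave it a limma adjusted p of 0.0492. Without control library 1, Ras-induced library 1 or Ras-induced library 3, E2F5 was the only family member called lower. Those called lower were E2F5 and E2F8 without control library 2, and E2F5, E2F8 and RBL1 without Ras-induced library 2. Among the fits without a library, RB1 was called only in that without control library 3.

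**Figure D5:**
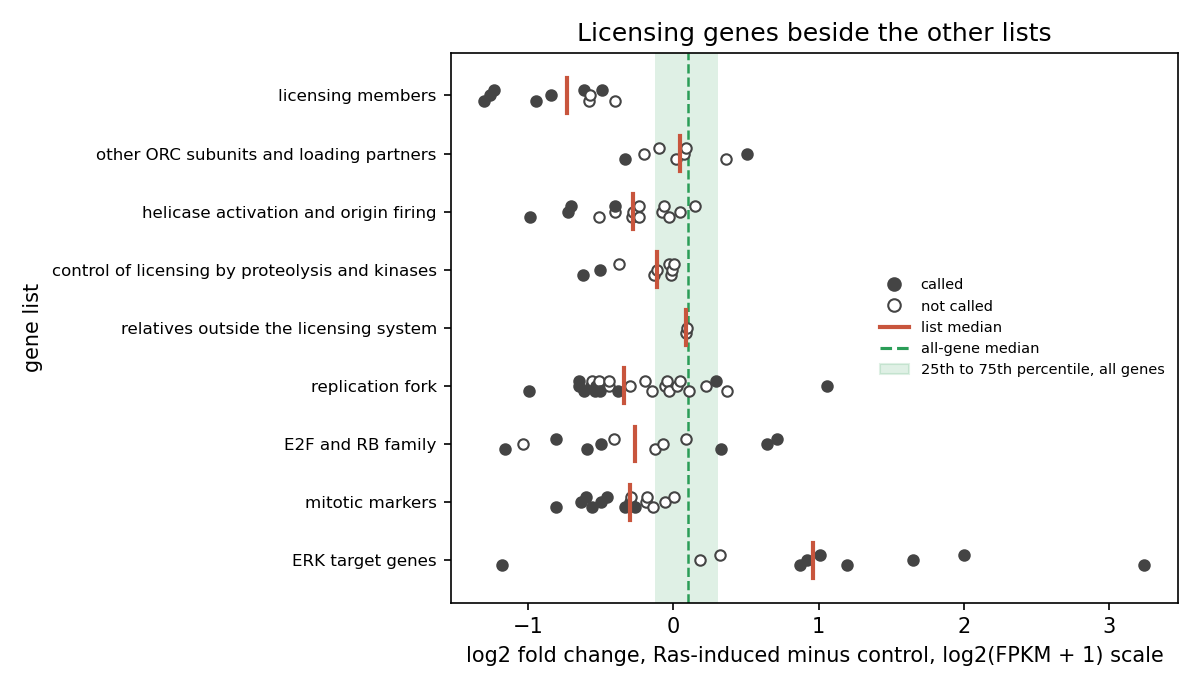
Each point is a tested gene placed by its log2 fold change (Ras-induced minus control, log2(FPKM + 1) scale), with filled points for called genes, a red bar for the list median, and the all-gene median and quartile range in green. The licensing genes have a median of -0.73, and the ERK target genes a median of 0.96.

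The composition of the cultures was read from marker lists. Among all genes tested, 5.67% were called lower in Ras-induced cells. Of 15 mitotic markers, 9 were called lower and the others were not called (median log2 fold change -0.30). Their summed level was 2452, 2436 and 2571 FPKM in the control libraries and 1903, 2088 and 2049 FPKM in the Ras-induced libraries. No mitotic marker was at 0 in every library, and the most abundant, CCNB1, which encodes cyclin B, was at 550 ± 34.6 and 482 ± 38.8 FPKM (SD, n = 3) and was not called. CDK1, the least abundant of the list, was at 3.68 ± 1.99 and 2.73 ± 1.02 FPKM (SD, n = 3) and was not called either. KIF20A, a kinesin of late mitosis, had the lowest log2 fold change of the list (-0.81, limma adjusted p = 0.00280), followed by TOP2A (-0.63, limma adjusted p = 0.0339) and HMMR (-0.60, limma adjusted p = 0.0398). The count called lower was 1, 1 and 7 without control libraries 1, 2 and 3 and 2, 4 and 1 without Ras-induced libraries 1, 2 and 3. The part of these markers in the change of the licensing genes was not tested, and in bulk RNA fewer cells of a kind and less RNA per cell cannot be told apart. Of 8 fibroblast markers, 3 were called lower (LUM, COL1A2 and THY1, log2 fold changes -2.01, -1.30 and -1.19) and the others were not called, with a list median of -1.22. COL1A1 (-1.43, limma adjusted p = 0.0501) and COL3A1 (-1.25, limma adjusted p = 0.0553) just missed the threshold. The count was 2 without control library 2 or Ras-induced library 1, where COL1A2 was not called (limma adjusted p = 0.0576 and 0.0518). It was 5 without Ras-induced library 2, after scaling to a common upper quartile, with a pseudocount of 0.1 or with a minimum mean of 5 FPKM. Quantile normalization and the library number as a block each gave 4. The part of these markers in the change of the licensing genes was not tested either. Their sums were 5396, 6310 and 6207 FPKM in control cells and 4033, 5299 and 3941 FPKM in Ras-induced cells, and the most abundant, VIM, was at 2149 ± 71.4 and 2248 ± 320 FPKM (SD, n = 3). The 10 markers of other cell types summed to 47.7, 58.0 and 47.8 FPKM in control cells and 50.4, 54.1 and 56.8 FPKM in Ras-induced cells, with CD68 the most abundant, 7 under a mean of 1 FPKM, PECAM1 and CD3E listed at 0, and 0 of the 3 tested called by limma (1, CD68, at an unadjusted limma p of 0.0478). The others tested were epithelial keratins. KRT5 was at 11.72 ± 6.03 FPKM in control and 11.55 ± 0.375 FPKM in Ras-induced cells (SD, n = 3). KRT14 was at 10.19 ± 2.96 and 8.45 ± 0.348 FPKM (SD, n = 3).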

How the data were processed

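Poly(A) RNA of 6 libraries was sequenced, 3 per group. Per the labels and the study's methods, the authors trimmed reads with Trim Galore 0.3.0, aligned them with TopHat2 to hg19, guided by Ensembl 73 splice junctions, and calculated with Cufflinks the FPKM values that were deposited for each gene and library. Columns name a group and a number but no sample, so each served as a replicate of that group without a sample of its own. A further 18 columns with no name were not used, and 120 genes with more than 6 values were left out. The authors' Cuffdiff table holds group FPKM, fold changes, test statistics, p-values and q-values, and was not used.

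The test was limma 3.58.1 (R 4.3.3), two-sided, by lmFit and trended eBayes on log2 of FPKM plus a pseudocount of 1, for the 13993 genes averaging 1 FPKM or more, and p-values were adjusted over these by Benjamini-Hochberg. The procedure was tested on simulated data. FPKM hold no counts, so no count test was run. Alternatives were a pseudocount of 0.1, other filters, quantile and upper quartile scaling, no trend, the library number as a block, a fold threshold, and each library left out. GRCh37 coordinates (the same build as hg19) and overlaps are from GENCODE 44, a later annotation, and promoters from RefSeq. Python 3.11.15, numpy 2.4.6 and matplotlib 3.10.9 made tables and figures.

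Named genes are the 10 licensing genes, HRAS, the 8 genes of highest correlation with the mean of the members' z-scores, and in each list the 2 to 4 called genes with the largest absolute log2 fold change plus genes a role needs and the most abundant marker of each cell type list. Others, such as E2F2, E2F4, RBL1, RB1, COL1A1, COL3A1, CDK1, KRT5, KRT14 and genes named for a change of call between settings, were chosen after their values were seen. The members and lists were chosen with earlier results of these data known.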

Additional observations from a re-analysis of the deposited data

How the results depend on the processing

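The direction of each of the 10 licensing genes was the same in all 13 other settings run for single genes, and the median log2 fold change of the 10 lay between -0.84 and -0.66 over them and the main setting. MCM7 lost its call in 7 of these settings, among them no filter on the mean (limma adjusted p = 0.107) and no mean-variance trend (0.0673), GMNN in 4, MCM2 in 3 and CDT1 in 1. CDC6 was called in 4, MCM4 in 1 (limma adjusted p = 0.0492 with the block) and ORC1 in none (0.0510 to 0.257). The number of licensing genes called was 7 in the main setting, 3 (CDT1, MCM3 and MCM6) where the log2 fold change also had to reach 1 in size, and 3 to 7 with 1 library left out (3 without Ras-induced library 1, 4 without control library 2 or Ras-induced library 3, 5 without control library 1, 6 without control library 3, 7 without Ras-induced library 2). The number of all genes called, 2336, was 1518 with no filter on the mean, where 29362 genes were tested, 548 with the fold threshold, and 860 (without Ras-induced library 3) to 1872 (without control library 3) with 1 library left out, in fits with fewer samples. The range of log2 fold changes of MCM2 to MCM7 was 0.98 with a pseudocount of 0.1, which compresses low values less than 1 does, and 0.76 to 0.89 with 1 library left out. The log2 ratio of CDT1 to GMNN lay between -0.73 and -0.49 in its alternatives. The main fit had no block, since the study's methods state no pairing of numbers across groups. Over all genes tested, same-numbered libraries of the groups had correlations of their deviations of -0.0027, 0.043 and 0.048. With the number as a replicate block 9 licensing genes were called, CDC6 (limma adjusted p = 0.0255) and MCM4 being added, while ORC1 was at 0.0590. Among the other genes named, HRAS (limma adjusted p = 0.0526), RBL1 (0.0682), E2F4 (0.0537) and FEN1 (0.0514) lost their calls with the block. E2F1 (0.0282) and COL1A1 (0.04555) were called lower with it. HRAS, LRWD1 and MCMBP also lost their calls with no filter on the mean (limma adjusted p = 0.166, 0.0806 and 0.0585) and with no mean-variance trend (0.0612, 0.0538 and 0.0628), and the mitotic markers called lower were then 3 and 4 in place of 9. With no filter on the mean, the calls of GINS2, DBF4B, RBL1, E2F7, E2F4, TOP2A and HMMR were also lost (limma adjusted p = 0.0790, 0.0508, 0.106, 0.102, 0.0727, 0.0806 and 0.0973), replication fork genes called lower were 5 in place of 9, those of helicase activation 2 in place of 4, and ERK target genes called higher 5 in place of 7. E2F and RB family members called higher were 1 in place of 3 there and with no mean-variance trend, where FEN1, E2F7, E2F4 and HMMR lost their calls (limma adjusted p = 0.0581, 0.0566, 0.0719 and 0.0580). The results of genes and lists outside the licensing genes under these settings were added after seeing the data. With no read counts, the precision that depth gives each value is unknown, and groups of 3 limit each exact test to p = 0.1.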
